A study of Mus musculus with 24 samples.

Results

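The 8 genes described here are Axin2, Nkd1, Sp5 and Cdx1, which are targets of Wnt signalling, and Lef1, Tcf7, Tcf7l1 and Tcf7l2, which encode the DNA-binding factors of the pathway. The 8 genes were chosen by name, out of 22926 gene symbols in the count tables, and each was read from the first line of its symbol. RNA-seq had been done on 24 libraries of mouse embryonic stem cells (ESCs) of a 129-derived line in which Pou5f1 (Oct4) also drives eGFP. Of these, 12 came from undifferentiated cells (D0) and 12 from cells grown for 6 days without leukemia inhibitory factor (LIF), the cytokine that holds ESCs in the pluripotent state (D6). On each day there were 3 clones of wild-type cells (WT), 3 of Tet1-/-, 2 of Tet2-/-, 2 of Tet1-/-:Tet2-/- (DKO) and 2 of Tet1-/-:Tet2-/-:Tet3-/- (TKO). The libraries of a group are separate clones, and most clones were sampled on both days. All the clones descend from 1 parental clone, WT cells carry the same eGFP allele as the knockouts, and the Tet genes, which encode enzymes that oxidise 5-methylcytosine, had been disrupted by CRISPR indels.

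Wnt ligands bind Frizzled and Lrp5/6 receptors and thereby stop a complex built on Axin and Apc from destroying beta-catenin. Beta-catenin then joins TCF/LEF factors on DNA, where they otherwise hold target genes down together with Groucho/Tle co-repressors. In ESCs, Tcf7l1 is known mostly as a repressor of pluripotency genes, Tcf7 and Lef1 act mostly as activators once beta-catenin is bound, and Wnt signalling is needed later for the primitive streak and mesoderm.

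The libraries held 21729346 to 37290208 counts at D0 and 18400463 to 34219640 at D6. Levels are given in CPM, counts scaled to a library of 1000000 after TMM scaling over the 24 libraries. Calls come from edgeR's quasi-likelihood test and needed an adjusted p (Benjamini-Hochberg, over all genes tested) under 0.05 together with a difference of more than 2-fold. All 8 genes passed the filter on low counts in each fit. Fewest reads were counted for Sp5 at D0, with 9 to 19 a library. Of the edited genes, Tet2 had 87.9 to 94.0 CPM at D0 in WT and 20.9 to 23.2 CPM in Tet2-/-, but at D6 it had 12.3 to 16.0 CPM in WT and 15.9 to 16.6 CPM in Tet2-/-. Tet1 was not uniformly lower at D0 in the knockouts that lack it, whereas Tet2 in DKO and TKO and Tet3 in TKO lay below WT. Tet1 had 220 to 431 CPM in WT, 93.4 to 358 CPM in Tet1-/-, 231 and 373 CPM in DKO and 41.7 and 568 CPM in TKO, Tet2 had 22.3 and 55.7 CPM in DKO and 8.16 and 42.5 CPM in TKO, and Tet3 had 5.05 to 7.94 CPM in WT and 2.84 and 4.43 CPM in TKO. RNA levels alone thus do not check the genotype labels, which by the authors' account rest on sequenced indels and on Western blots for loss of protein. At D0 the summed level of 6 pluripotency markers was 3197 to 4068 CPM over all libraries, against 10.02 to 24.7 CPM for 8 markers of primitive streak and mesoderm. In bulk RNA, fewer cells that express a gene and less RNA of it per cell cannot be told apart.

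Promoter windows of 300 bases (250 before and 50 after the start site) were at hand for 7 of the 8 genes from RefSeq (build GRCm38.p6). They were searched on both strands for 4 forms of the TCF motif, which cannot overlap one another on a strand. The forms searched were CTTTGAA as the first, CTTTGAT as the second, CTTTGTA as the third and CTTTGTT as the last. At least one form stood in 16.9% of the 27025 genes with a window of that length and, among the members, in the first window of Sp5 only. In addition, 1 of 4 windows of Lef1 and 1 of 2 windows of Tcf7l2 held one, at a further start site. The 250 bases before the start site of Sp5 (chr2:70474673-70474922, plus strand) and of Axin2 (chr11:108920099-108920348, plus strand) are shown because these targets were the members called lower in Tet2-/- at D6, and capitals mark the motif.
Sp5: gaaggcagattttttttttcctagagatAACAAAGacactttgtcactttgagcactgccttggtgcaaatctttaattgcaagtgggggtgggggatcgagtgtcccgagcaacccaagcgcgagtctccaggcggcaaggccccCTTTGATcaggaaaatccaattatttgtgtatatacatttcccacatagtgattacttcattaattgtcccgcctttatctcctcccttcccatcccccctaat
Axin2: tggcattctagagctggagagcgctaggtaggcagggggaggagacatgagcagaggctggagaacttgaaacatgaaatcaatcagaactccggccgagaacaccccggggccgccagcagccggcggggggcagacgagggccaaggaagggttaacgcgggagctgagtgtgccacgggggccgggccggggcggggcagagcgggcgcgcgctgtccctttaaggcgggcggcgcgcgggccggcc
In Sp5 the form CTTTGTT lay on the other strand from base -222 and CTTTGAT on the gene's strand from base -104, counted from the start site. The Axin2 window held none of the 4 forms. A match in letters is a description of the sequence and not a bound site.

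The members lie apart in the genome. In mm9, the build of the count tables, with gene models of GENCODE vM1, Axin2 spans chr11:108781663-108812097, Nkd1 chr8:91045243-91118786, Sp5 chr2:70312980-70315786 and Cdx1 chr18:61178516-61195853. Among the factors, Lef1 spans chr3:130813389-130927274, Tcf7 chr11:52065873-52096681, Tcf7l1 chr6:72576372-72739248 and Tcf7l2 chr19:55816300-56008144. Other annotated genes overlap Axin2, Tcf7 and Tcf7l1. Whether reads were counted by strand is not given in the sources used here, so reads of these overlapping genes may be included.

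In undifferentiated cells the target genes were low and the factors differed widely. Per kilobase of the longest coding transcript, WT cells at D0 had 20.1 ± 0.54 CPM (SD, n = 3) of Tcf7, 10.6 ± 0.33 of Tcf7l1, 2.82 ± 0.19 of Cdx1, 2.4 ± 0.26 of Tcf7l2, 1.94 ± 0.14 of Axin2, 0.423 ± 0.083 of Lef1, 0.313 ± 0.094 of Nkd1 and 0.310 ± 0.061 of Sp5. Neighbours in this order were within their spread for Cdx1 and Tcf7l2, for Lef1 and Nkd1, and for Nkd1 and Sp5. After 6 days without LIF the order was another. At D6 the same scale gave 63.5 ± 17 CPM per kilobase for Tcf7, 29.5 ± 16 for Sp5, 17.3 ± 1.4 for Tcf7l1, 13.6 ± 5.0 for Axin2, 11.2 ± 2.3 for Lef1, 6.43 ± 2.1 for Tcf7l2, 3.49 ± 1.8 for Nkd1 and 0.483 ± 0.086 for Cdx1. Neighbours from Sp5 down to Lef1 did not differ beyond their spread, nor did Tcf7l2 and Nkd1, whereas Cdx1 was the lowest member.

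**Figure D1:**
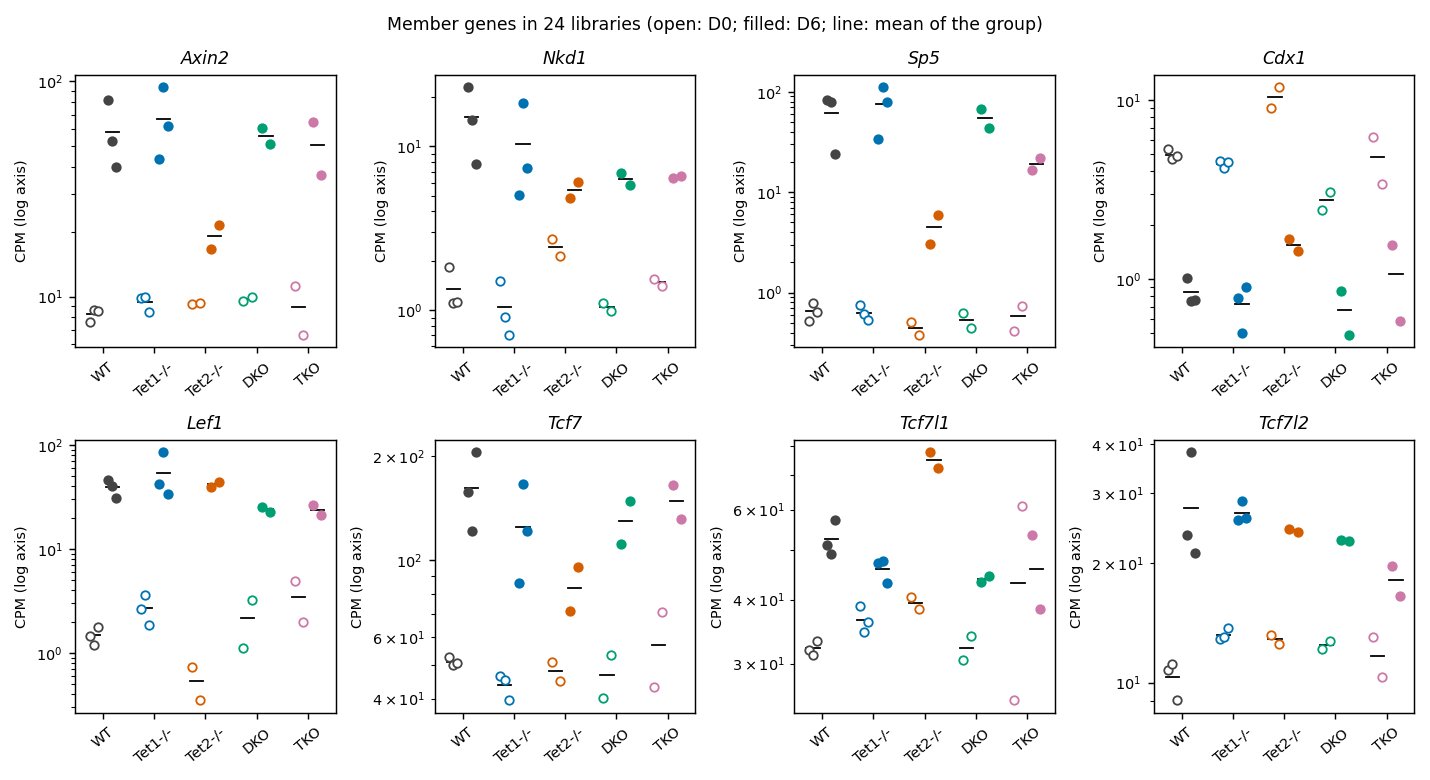
CPM of each member (log axis) in the 24 libraries by genotype, with open points for D0, filled points for D6 and a line at the mean of each group. Axin2 and Sp5 in Tet2-/- at D6 lie below all other D6 libraries, and Cdx1 at D0 is highest in Tet2-/-.

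Axin2, a scaffold of the destruction complex whose transcription rises with the signal it dampens, is the usual readout of the pathway. In WT cells it had 7.59, 8.64 and 8.55 CPM at D0 and 39.9, 53.0 and 81.4 CPM at D6. Axin2 thus rose 7.04-fold (log2 2.82, standard error 0.29, edgeR adjusted p = 1.711e-07). Nkd1, an inhibitor that binds Dishevelled, went from 1.82, 1.11 and 1.12 CPM to 7.77, 14.4 and 23.0 CPM, a rise of 11.1-fold (log2 3.47, standard error 0.45, edgeR adjusted p = 2.103e-06). Sp5, a zinc finger factor induced by Wnt in the early embryo, had 0.525, 0.782 and 0.648 CPM at D0 and 23.8, 78.9 and 83.0 CPM at D6. One WT clone thus reached less than the others, and the rise was still 94.4-fold (log2 6.56, standard error 0.55, edgeR adjusted p = 1.142e-08). Cdx1, a homeobox factor of the posterior body, moved the other way. It had 5.29, 4.65 and 4.88 CPM at D0 and 0.762, 0.757 and 1.02 CPM at D6, and fell by 2.53 on the log2 scale (standard error 0.32, edgeR adjusted p = 1.636e-06).

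Of the factors, Lef1, Tcf7 and Tcf7l2 were called higher. Lef1 had 1.45, 1.19 and 1.77 CPM in WT at D0 and 30.7, 40.6 and 46.2 CPM at D6, a 26.5-fold rise (log2 4.73, standard error 0.43, edgeR adjusted p = 2.853e-08). Tcf7 went from 50.04 to 52.6 CPM at D0 to 121 to 205 CPM at D6 and rose 3.16-fold (edgeR adjusted p = 5.168e-06), and Tcf7l2 rose 2.67-fold (edgeR adjusted p = 9.633e-07). Tcf7l1 was higher by 1.64-fold, below the 2-fold limit (edgeR adjusted p = 0.003917). In all, 6 of the 8 members rose and 1 fell in WT, where 20.7% of the 15639 genes tested were called higher and 13.3% lower. The median log2 fold change was 2.24 over the members and 0.02 over all genes tested.

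The same change was then measured in each knockout. In Tet1-/- again 6 members rose and 1 fell, at a background of 19.9% higher and 11.2% lower. Tcf7l2 there rose 2.03-fold (log2 1.02, edgeR), and with clone as a block its log2 fold change was 0.96, under the limit. DKO and TKO each had 5 members higher and 1 lower. The background was 18.6% higher and 10.6% lower in DKO and 16.8% higher and 8.63% lower in TKO. These shares depend on the scaling, because library totals in place of TMM turned 2904 higher and 1660 lower genes into 3531 and 1168 in DKO, and 2626 and 1350 into 3124 and 950 in TKO. In both, Tcf7l2 was the member called in WT that stayed below the 2-fold limit, with log2 fold changes of 0.88 and 0.63.

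In Tet2-/- cells 3 members rose, Axin2, Sp5 and Lef1, and Cdx1 fell, where 12.7% of genes were called higher and 6.44% lower. Axin2 rose 2.04-fold (log2 1.03, standard error 0.34, edgeR adjusted p = 0.02286), which is close to the limit. That call was lost without D0 replicate 1 (edgeR adjusted p = 0.0866), without D0 replicate 2 (0.1025) and without D6 replicate 1 of Tet2-/- (0.1577). Sp5 rose 10.3-fold (log2 3.36, standard error 0.69, edgeR adjusted p = 0.0008711). Nkd1 had a log2 fold change of 1.17 (standard error 0.51, edgeR adjusted p = 0.07356) and was called with clone as a block (1.16, adjusted p = 0.01011). It was also called without D6 replicate 2 of Tet1-/- (edgeR adjusted p = 0.02364), D6 replicate 3 of Tet1-/- (0.04374) or D6 replicate 1 of WT (0.0469). Lef1 rose by 6.33 on the log2 scale (standard error 0.58, edgeR adjusted p = 1.899e-07) from 0.725 and 0.351 CPM at D0 to 43.7 and 39.9 CPM at D6. Tcf7, Tcf7l1 and Tcf7l2 had adjusted p-values under 0.05 in edgeR with differences of less than 2-fold (log2 0.80, 0.93 and 0.91), so 7 of 8 members passed on p alone, where 40% of all genes did.

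**Figure D2:**
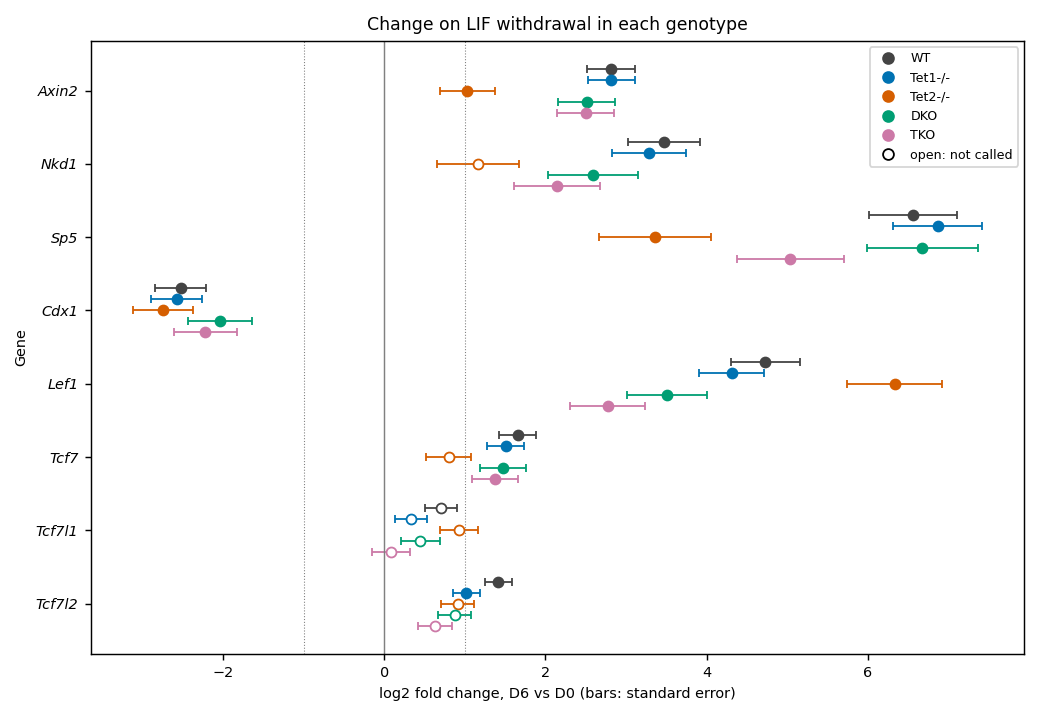
Log2 fold change of each member from D0 to D6 in the 5 genotypes, with bars for the standard error and filled points for called changes. In Tet2-/- the changes of Axin2, Nkd1 and Sp5 (1.03, 1.17 and 3.36) are below those of the other genotypes, while that of Lef1 (6.33) is above them.

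Whether the change on LIF withdrawal differed between a knockout and WT was tested as an interaction in the fit of all 24 libraries. For Tet2-/-, 3 members were called, all lower, where 5.13% of genes were called lower and 3.54% higher. The difference was -1.78 for Axin2 (standard error 0.44, edgeR adjusted p = 0.01364), -2.31 for Nkd1 (standard error 0.67, edgeR adjusted p = 0.02696) and -3.20 for Sp5 (standard error 1.00, edgeR adjusted p = 0.03648). Lef1 had a difference of 1.60 in the other direction (edgeR adjusted p = 0.125) and was not called. For Nkd1, Tet2-/- differed from WT by 0.82 at D0 and by -1.48 at D6 on the log2 scale, and neither was called. The calls of Axin2, Nkd1 and Sp5 did not hold in every fit without 1 library, and some of these fits left Tet2-/- with 1 library on a day. The Axin2 call was lost without Tet2-/- D0 replicate 1 (edgeR adjusted p = 0.0581) or D6 replicate 2 (0.0725). The Nkd1 call was lost in 7 such fits, without either Tet2-/- library of D0 (edgeR adjusted p = 0.108 and 0.0542) or of D6 (0.0723 and 0.102), D0 replicate 2 or 3 of WT (0.0580 and 0.0606) and D6 replicate 3 of WT (0.0709). For Sp5 this happened in 8 fits, without either Tet2-/- library of D0 (edgeR adjusted p = 0.166 and 0.107), D6 replicate 2 of Tet2-/- (0.101), any D0 library of WT (0.0593, 0.0547 and 0.0622) or D6 replicate 2 or 3 of WT (0.0621 and 0.0670).

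No member was called in the interaction of Tet1-/- or DKO, in which 0% of genes were called and 0 members had an unadjusted p under 0.05, as against 7.67% and 8.02% of all genes. DESeq2 called no member there either. In TKO edgeR called no member, at a background of 1.74% lower and 1.84% higher, and 2 members had an unadjusted p under 0.05, as did 23.6% of all genes. Lef1 came closest, with a difference of -1.96 (standard error 0.61, edgeR adjusted p = 0.0612). DESeq2 called it (adjusted p = 0.0166), as did edgeR with clone as a block (difference -1.89, adjusted p = 0.0481). Without D0 replicate 2 of TKO (-2.48, edgeR adjusted p = 0.0163), D6 replicate 2 of Tet1-/- (0.0275) or D6 replicate 1 of WT (0.0351) it was also called. Tcf7l1 was called without D0 replicate 1 of TKO (-1.13, edgeR adjusted p = 0.002997). The TKO clones had 25.4 and 61.0 CPM of Tcf7l1 at D0.

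At D6, 2 of the 4 target genes, Axin2 and Sp5, were called lower in Tet2-/- than in WT. Axin2 had 21.5 and 16.6 CPM in Tet2-/- and 39.9 to 81.4 CPM in WT. The level was 3.08-fold lower (log2 -1.63, standard error 0.38, edgeR adjusted p = 0.0130). Sp5 had 5.93 and 3.07 CPM in Tet2-/- against 23.8 to 83.0 CPM in WT and was 13.8-fold lower (log2 -3.78, standard error 0.66, edgeR adjusted p = 0.005599). Thus 2 of 8 members were called lower and none higher, where 9.45% of all genes tested were called lower and 4.81% higher. The Axin2 call was lost without either D6 library of Tet2-/- and the Sp5 call without replicate 2. Fits with 1 Tet2-/- library lost most calls over all genes as well, so these losses are not particular to the 2 genes. The log2 fold change of Axin2 was -1.83 without replicate 1 and -1.45 without replicate 2. That of Sp5 was -3.39 without replicate 2 (edgeR).

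Nkd1, at 6.05 and 4.81 CPM in Tet2-/- and 7.77, 14.4 and 23.0 CPM in WT, had a log2 fold change of -1.48 (standard error 0.54, edgeR adjusted p = 0.0589). DESeq2 called it lower (adjusted p = 0.0154), as did edgeR with no filter on low counts (0.0496), with all 24 libraries in the fit (0.0175) and without D6 replicate 1 of WT (0.0244), replicate 2 of Tet1-/- (0.0178) or replicate 3 of Tet1-/- (0.0336). Cdx1 had 1.44 and 1.67 CPM in Tet2-/- and 0.757 to 1.02 CPM in WT and was not called (log2 0.85, edgeR adjusted p = 0.1528).

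Among the factors at D6, Lef1 in Tet2-/- (43.7 and 39.9 CPM) lay within the range of WT (30.7 to 46.2 CPM), with a log2 difference of 0.08 and a standard error of 0.32. Tcf7 had 95.6 and 71.3 CPM against 121 to 205 CPM in WT (log2 -0.97, edgeR adjusted p = 0.03089), just inside the 2-fold limit. It passed the limit under library totals (-1.02), with the replicate number as a block (-1.11) and without D6 replicate 2 of WT (-1.11). Tcf7l1 had 72.4 and 77.7 CPM against 49.0 to 57.3 CPM in WT. Its level was higher in Tet2-/- than in every other D6 library, by 1.41-fold against WT (log2 0.50, standard error 0.14, edgeR adjusted p = 0.02244). Tcf7l2 differed by -0.21 (standard error 0.22). Counted by adjusted p alone, 4 of 8 members differed, where 28.5% of all genes did. Over the 8 members the median log2 fold change was -0.59, over all genes -0.03.

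Tet2-/- cells were next compared with the other knockouts. These comparisons share the Tet2-/- libraries with the one against WT, so their values stand side by side and are not independent. Axin2 was 3.53-fold lower in Tet2-/- than in Tet1-/- (62.0, 94.1 and 43.7 CPM, edgeR adjusted p = 0.01887), 2.97-fold lower than in DKO (51.2 and 60.3 CPM, adjusted p = 0.02657) and 2.71-fold lower than in TKO (36.5 and 64.9 CPM, adjusted p = 0.03814). Sp5 was 16.7-fold lower than in Tet1-/- (78.9, 112 and 33.6 CPM, edgeR adjusted p = 0.01041) and 12.4-fold lower than in DKO (43.5 and 67.4 CPM, adjusted p = 0.008415). Against TKO (21.9 and 16.5 CPM) its log2 fold change was -2.12 (standard error 0.65, edgeR adjusted p = 0.05205). Nkd1 was not called against any other knockout. Its log2 fold change was -0.93 against Tet1-/-, -0.24 against DKO and -0.29 against TKO (edgeR adjusted p = 0.2688, 0.7997 and 0.7459). The background of genes called lower was 4.48% against Tet1-/-, 6.37% against DKO and 6.01% against TKO, and 1.87%, 3.13% and 2.63% were called higher. Both Tet2-/- libraries lay below the other 10 D6 libraries for Axin2 and Sp5, and above them for Tcf7l1, where 15.2% of all genes tested lay below in this way and 15.1% above.

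Calls against the other knockouts also changed with single libraries. Without D6 replicate 1 or 2 of Tet2-/-, which leaves 1 library of it, no call of Axin2 or Sp5 stood. There the log2 fold change of Axin2 was -2.02 or -1.64 against Tet1-/-, -1.77 or -1.39 against DKO and -1.64 or -1.26 against TKO. That of Sp5 was -4.62 or -3.67 against Tet1-/- and -4.19 or -3.24 against DKO (edgeR). For Axin2 the call was also lost without D6 replicate 1 of Tet1-/- (adjusted p = 0.0562 against Tet1-/- and 0.0553 against TKO, edgeR). It was lost without replicate 1 or 2 of DKO (0.0952 and 0.115 against DKO, 0.0563 and 0.0575 against TKO), and against TKO without replicate 2 of TKO (0.247), replicate 2 of WT (0.0511) and with the replicate number as a block (0.0617). In the other direction, Sp5 was called lower than in TKO without D6 replicate 2 or 3 of Tet1-/- (edgeR adjusted p = 0.0418 and 0.0288) or replicate 1 of WT (0.0233). It was also called by DESeq2 (0.0225), with no filter on low counts (0.0355) and with all libraries in 1 fit (0.007945). On adjusted p alone 2 members differed from TKO, where 14.9% of all genes did. Tcf7l1 stayed under 2-fold in the 3 comparisons, with log2 differences of 0.69, 0.76 and 0.68 (edgeR adjusted p = 0.01564, 0.01052 and 0.01844).

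**Figure D3:**
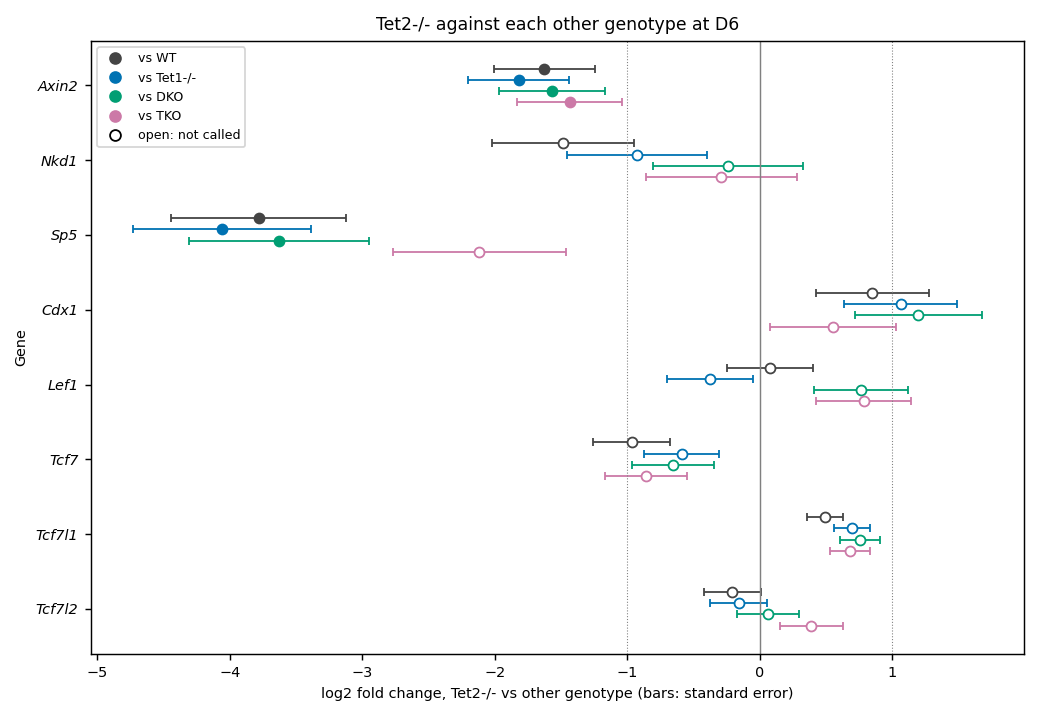
Log2 fold change of each member in Tet2-/- at D6 against each of the other genotypes, with bars for the standard error and filled points for called differences. Axin2 lies between -1.44 and -1.82 and Sp5 between -2.12 and -4.06, while Lef1 and Tcf7l2 lie on both sides of 0.

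In undifferentiated Tet2-/- cells, Cdx1 was the member called. It had 9.05 and 11.8 CPM in Tet2-/- and 5.29, 4.65 and 4.88 CPM in WT, a 2.08-fold higher level (log2 1.06, standard error 0.23, edgeR adjusted p = 0.01845), where 0.816% of the 14456 genes tested were called higher and 2.37% lower. The call was lost without D0 replicate 1 or 2 of Tet2-/- (edgeR adjusted p = 0.0821 and 0.184) and without replicate 2 or 3 of WT (0.0727 and 0.0686). Lef1 pointed down, at 0.725 and 0.351 CPM against 1.45, 1.19 and 1.77 CPM in WT (log2 -1.52, standard error 0.58, edgeR adjusted p = 0.1092). DESeq2 called Lef1 (adjusted p = 0.0489), and edgeR did so without D0 replicate 1 or 2 of TKO (0.0308 and 0.0306). Nkd1 had 2.73 and 2.13 CPM in Tet2-/- and 1.82, 1.11 and 1.12 CPM in WT (log2 0.82, edgeR adjusted p = 0.1163). Both Tet2-/- libraries lay above the other 10 D0 libraries for Cdx1 and Nkd1 and below them for Lef1, as did 12.6% and 9.66% of all genes tested. Axin2 and Sp5, the genes called lower at D6, had log2 differences of 0.15 and -0.59 at D0 (standard errors 0.20 and 0.38).

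The other knockouts gave no call against WT on either day by edgeR, and DESeq2 also called no member. At D0, 1 member each in Tet1-/-, DKO and TKO had an unadjusted p under 0.05, as did 12.6%, 14.4% and 26.4% of all genes, and the background of calls was 0.00692% lower and 0% higher for Tet1-/-. For DKO 0.0208% were lower and 0.0138% higher, and for TKO 2.12% were lower and 1.03% higher. At D6, 0, 1 and 3 members had an unadjusted p under 0.05, as did 12.6%, 14.6% and 23.5% of all genes, where 0% of genes were called in each. The widest gap was that of Sp5 in TKO at D6, with 21.9 and 16.5 CPM against 23.8 to 83.0 CPM in WT (log2 -1.67, standard error 0.58, edgeR adjusted p = 0.1324). It was called with all 24 libraries in 1 fit (-1.68, adjusted p = 0.0325) and without D6 replicate 1 of WT (-2.05, edgeR adjusted p = 0.0306). Nkd1 at D6 was 5.78 and 6.90 CPM in DKO and 6.58 and 6.44 CPM in TKO, with log2 differences from WT of -1.24 and -1.19 (standard error 0.53 for each, edgeR adjusted p = 0.3132 and 0.2056). Lef1 at D0 was 4.97 and 1.98 CPM in TKO (log2 1.24, standard error 0.47, edgeR adjusted p = 0.1219) and was called without D0 replicate 2 of TKO (1.75, adjusted p = 0.0131, edgeR).

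The make-up of the TCF/LEF family also shifted with LIF withdrawal. As a share of the summed CPM per kilobase of the 4 factors, WT cells at D0 had 60.0% ± 0.59 (SD, n = 3) Tcf7, 31.5% ± 0.99 Tcf7l1, 7.17% ± 0.81 Tcf7l2 and 1.26% ± 0.24 Lef1. At D6 the shares in WT were 63.8% ± 7.3, 17.7% ± 1.3, 6.83% ± 3.2 and 11.7% ± 3.4, with more Lef1 and less Tcf7l1. In Tet2-/- at D6, Tcf7 held 39.7% and 47.3% and Tcf7l1 36.1% and 29.9% in the 2 clones. The highest Tcf7l1 share in any other D6 library was 22.9% and the lowest Tcf7 share was 50.2%, both in Tet1-/-. Lef1 took 16.0% ± 0.29 of the family in Tet2-/- (n = 2) and 17.5% ± 4.8 in Tet1-/- (n = 3). Its share was 9.07% ± 1.8 in the 2 DKO clones and 8.09% ± 0.068 in those of TKO. These shares were not tested.

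**Figure D4:**
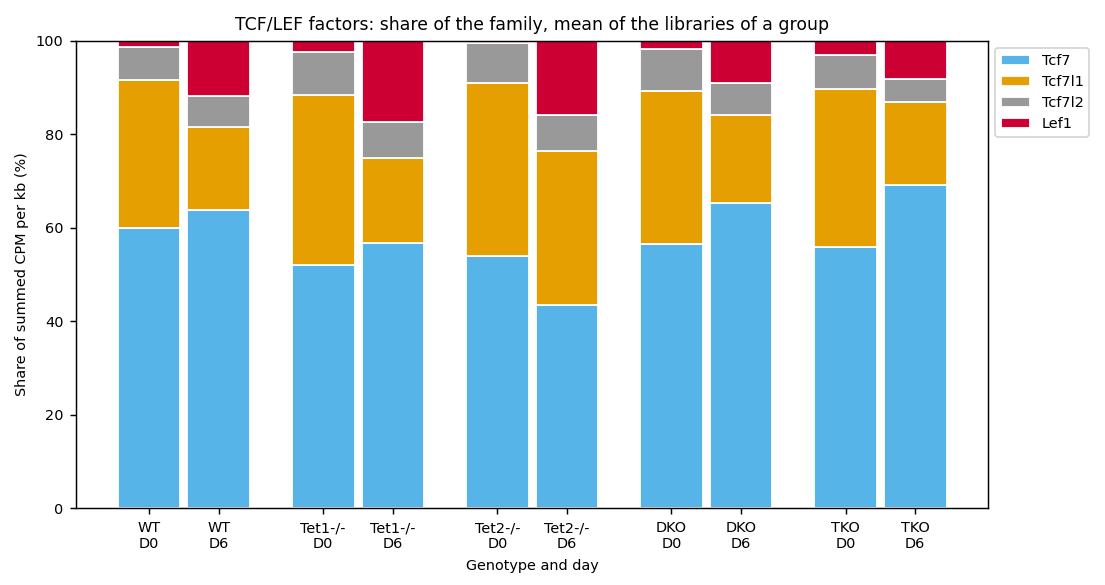
Mean share of each TCF/LEF factor in the summed CPM per kilobase of the family (percent), by genotype and day. From D0 to D6 the share of Lef1 grows in each genotype, and in Tet2-/- at D6 Tcf7l1 keeps 33.0% against 17.7% to 18.7% in the other genotypes.

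Other genes of the pathway were read from lists named for their roles. Beside each count stand the shares over all genes, which were 20.7% higher and 13.3% lower from D0 to D6 in WT and 4.81% higher and 9.45% lower in Tet2-/- against WT at D6, with medians of 0.02 and -0.03. The counts for Tet2-/- at D6 rest on both of its clones. In place of 2201 genes called of all tested, edgeR called 304 without D6 replicate 1 of Tet2-/-, 1348 without D6 replicate 3 of WT and 0 without D6 replicate 2 of Tet2-/-, so each call of that comparison in the lists is lost without that library. Of 17 Wnt ligands tested, 14 rose in WT from D0 to D6 and none fell, with a median log2 fold change of 4.21, or 3.21 with the 2 genes at 0 in every WT library of D0 (Wnt2 and Wnt9b) set to 3 counts a library. Wnt3, which is needed for the primitive streak, had 80.9 CPM at D6 and 0.433 CPM at D0 (log2 7.54, edgeR adjusted p = 1.515e-09). In Tet2-/- against WT at D6, 12 ligands were lower and none higher (median -2.68). Wnt5a, a ligand known mostly for noncanonical signalling, had 1.13 and 24.4 CPM on average (log2 -4.43, edgeR adjusted p = 0.02443). Wnt2 (0.0606 and 1.29 CPM, edgeR adjusted p = 0.01536) and Wnt3a (0.0318 and 0.729 CPM, adjusted p = 0.02526) were lower at very low levels. Summed over 19 ligands, Tet2-/- libraries had 31.2 and 38.0 CPM at D6, and the other 10 libraries 115 to 287 CPM.

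Receptors and the destruction complex showed no called difference between Tet2-/- and WT at D6. Of 14 receptors 0 were called by edgeR, 6 had an unadjusted p under 0.05, where 42.9% of all genes did, and the median log2 difference was 0.10. Of 11 genes for beta-catenin, its destruction complex and Dishevelled 0 were called, 5 had an unadjusted p under 0.05, at the same 42.9% over all genes, and the median was -0.15. From D0 to D6 in WT, 6 receptors rose and 1 fell, among them Fzd2 (27.3-fold, edgeR adjusted p = 1.224e-09), Fzd1 (11.9-fold, adjusted p = 1.496e-06) and Fzd8 (6.56-fold, adjusted p = 4.585e-06). Apc2 (3.24-fold) and Gsk3b (2.11-fold) of the destruction complex rose too (edgeR adjusted p = 0.0002259 and 5.518e-07).

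Secreted inhibitors split. Of 11 tested, 4 rose and 3 fell from D0 to D6 in WT, and in Tet2-/- against WT at D6 3 were lower and 3 higher, where 9.45% of all genes were lower and 4.81% higher. Dkk1, which blocks Lrp5/6, had 0.424 CPM in Tet2-/- and 25.1 CPM in WT (edgeR adjusted p = 0.006136), Cer1 had 0.643 and 38.0 CPM (adjusted p = 0.005505) and Frzb had 1.46 and 24.4 CPM (adjusted p = 0.009216). The 3 higher genes were Sfrp1, Sfrp2 and Sfrp4, which encode secreted proteins related to Frizzled that bind Wnt (log2 1.82, 1.28 and 2.23). Summed over the 14 inhibitors, Tet2-/- had 303 and 330 CPM at D6, more than any other D6 library (65.6 to 266 CPM), whereas the median log2 difference of the 11 tested from WT was -0.50, of the opposite sign. At D0 the sum was already higher in Tet2-/-, with 530 and 606 CPM against 171 to 367 CPM in the other D0 libraries.

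Among 15 other target genes of the pathway, 9 rose and none fell in WT from D0 to D6 (median log2 2.79), and 8 were lower and none higher in Tet2-/- than in WT at D6 (median -1.79), where 9.45% of all genes were lower. Summed over the 15 genes, Tet2-/- had 355 and 360 CPM at D6, within the range of the other D6 libraries (319 to 796 CPM). T (Brachyury), a factor of the streak and mesoderm, went from 0.277 to 127 CPM in WT (edgeR adjusted p = 2.825e-09). Msx1 went from 0.251 to 64.5 CPM (edgeR adjusted p = 1.272e-07), and Sp8, a relative of Sp5, from 0.0416 to 11.7 CPM (adjusted p = 5.798e-09). In Tet2-/- at D6 the homeobox genes Msx2 (log2 -5.29, edgeR adjusted p = 0.005894), Cdx2 (-4.74, adjusted p = 0.01672) and Msx1 (-4.10, adjusted p = 0.0104) were lowest relative to WT. Cdx1, a relative of Cdx2, was not called at D6 (log2 0.85, 14 to 50 reads a library), and a difference between these genes was not tested.

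Of 12 co-regulators of TCF factors, 2 were higher and 2 lower in Tet2-/- at D6, where 4.81% of all genes were higher and 9.45% lower. Tle4, a co-repressor of the Groucho family, had 238 CPM in Tet2-/- and 86.5 CPM in WT (log2 1.44, edgeR adjusted p = 0.007721), and Bcl9l, a co-activator that binds beta-catenin, had 15.6 and 46.3 CPM (log2 -1.59, adjusted p = 0.006557). Tle2 was lower at under 1 CPM (edgeR adjusted p = 0.0377), and Pygo1 was higher (log2 1.37). From D0 to D6 in WT, 3 co-regulators rose and 2 fell, with Bcl9l 5.35-fold and Tle2 3.01-fold higher and Aes, a short Groucho relative, lower (log2 -2.53) (edgeR adjusted p = 4.853e-08, 0.008743 and 3.02e-11).

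All 4 pluripotency genes on a list of those known to be held down by Tcf7l1 fell in WT from D0 to D6, with a median of -2.87. Tfcp2l1 fell by 3.114 on the log2 scale, Esrrb by 2.93 and Klf2 by 2.80 (edgeR adjusted p = 2.702e-07, 3.324e-06 and 4.273e-06). In Tet2-/- at D6, where Tcf7l1 was highest, Klf2 was higher than in WT (log2 1.73, edgeR adjusted p = 0.02554) and the other three were not called. The summed level of all 4 genes at D6 was 998 and 1047 CPM in Tet2-/- and 360 to 904 CPM in WT, and TKO reached 769 and 1010 CPM. Taken singly, Esrrb, Tfcp2l1 and Klf2 were higher in both Tet2-/- libraries than in the other 10 D6 libraries, and Nanog overlapped. Of all genes tested, 15.1% lay above in this way.

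Markers of cell types also differed between Tet2-/- and WT at D6. The 8 markers of primitive streak and mesoderm summed to 81.2 and 115 CPM in Tet2-/-, 227 to 601 CPM in WT, 263 to 753 CPM in Tet1-/-, 222 and 308 CPM in DKO and 135 and 259 CPM in TKO. By the test, 7 of the 8 were called lower in Tet2-/- than in WT, where 9.45% of all genes were. Mesp1 (log2 -6.60, edgeR adjusted p = 0.01105), Foxf1 (-6.16, adjusted p = 0.01327) and Evx1 (-5.33, adjusted p = 0.008048) were lowest. The sum over 6 endoderm markers was 9.45 and 10.97 CPM in Tet2-/- and 56.5 to 261 CPM in WT, and all 4 tested were lower, Sox17 by 7.06, Gata6 by 6.07 and Gata4 by 3.57 on the log2 scale (edgeR adjusted p = 0.005557, 0.004336 and 0.01052). The 5 trophectoderm markers summed to 36.5 and 39.2 CPM against 132 to 297 CPM in WT, with 4 lower, among them Hand1 (log2 -7.33), Gata3 (-4.01) and Elf5, at 0 in both Tet2-/- libraries (edgeR adjusted p = 0.005557, 0.00477 and 0.02627). Elf5 was very low in WT too, at 0.220 CPM on average. Of 4 smooth muscle markers tested 2 were lower, Acta2 and Tagln (log2 -2.18 and -1.77).

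The called pluripotency and neuroectoderm markers were higher. The 6 pluripotency markers summed to 1930 and 2073 CPM in Tet2-/- and 766 to 1317 CPM in WT at D6, and 1 of the 6, Pou5f1, was called higher (log2 1.18, edgeR adjusted p = 0.01284), where 4.81% of all genes were. Sox2 had a log2 difference of 1.30 (edgeR adjusted p = 0.05477) and Tdgf1 one of 0.60 (adjusted p = 0.03578), under the fold limit. Of 5 neuroectoderm markers tested 3 were higher, Tubb3 (log2 3.1), Pax6 (2.84) and Sox1 (2.39). Nes, the most abundant of the list in WT, had 71.0 CPM in Tet2-/- and 98.5 CPM in WT and was not called (log2 -0.49, edgeR adjusted p = 0.1509), nor was Zic1 (0.11, adjusted p = 0.9566). The list summed to 196 and 206 CPM against 96.6 to 129 CPM in WT. Tubb3 and Sox1 were themselves lower at D6 than at D0 in WT (log2 -3.68 and -1.40, edgeR adjusted p = 1.245e-06 and 0.01722). Within 4 of the 5 genotypes the D6 clones stood in the same order by Sp5 and by the sum of streak and mesoderm markers. In WT 23.8, 78.9 and 83.0 CPM of Sp5 stood beside 227, 557 and 601 CPM of the markers, and in Tet1-/- 33.6, 78.9 and 112 CPM beside 263, 462 and 753 CPM. The DKO clones had 43.5 and 67.4 CPM of Sp5 beside 222 and 308 CPM, and those of Tet2-/- 3.07 and 5.93 CPM beside 81.2 and 115 CPM. In TKO the order was the other way, with 21.9 CPM of Sp5 beside 135 CPM of the markers in one clone and 16.5 CPM beside 259 CPM in the other. Axin2 stood in the order of the marker sum in each genotype, TKO included (36.5 CPM beside 135 CPM and 64.9 CPM beside 259 CPM). Tet2-/-, DKO and TKO had only 2 clones each. The share of all genes in the same order was not counted, so these orders are description only. The part of these cell types in the levels of the members was not tested.

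**Figure D5:**
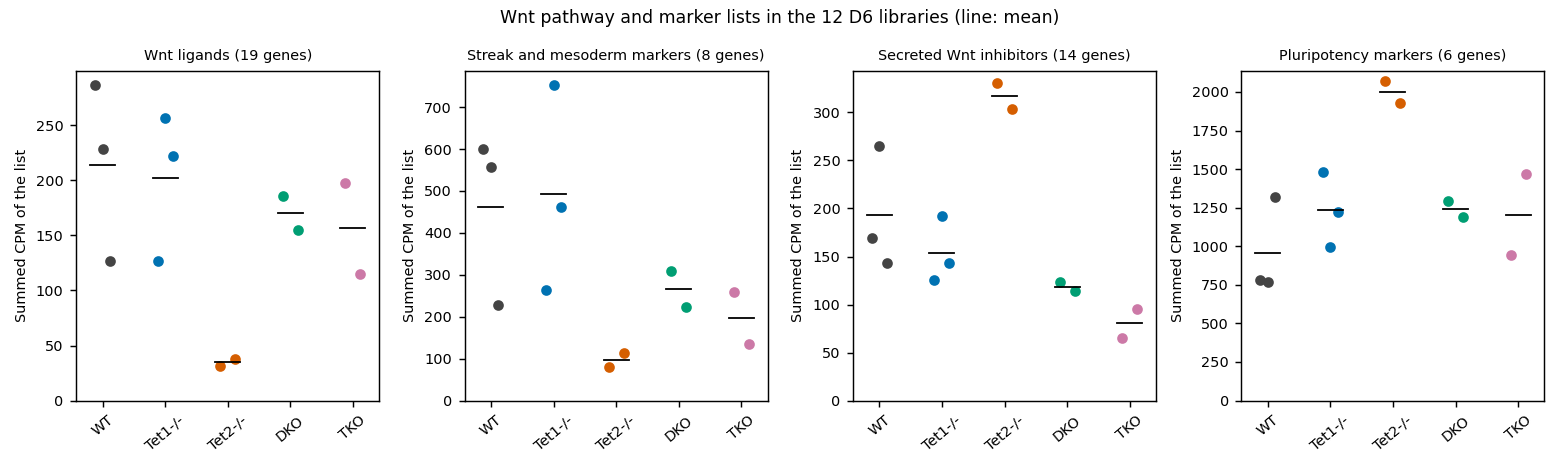
Summed CPM of 4 gene lists in each of the 12 D6 libraries, with a line at the mean of each genotype. Wnt ligands and markers of primitive streak and mesoderm are lowest in Tet2-/- (31.2 and 38.0 CPM, 81.2 and 115 CPM), whereas the sums of secreted inhibitors (median log2 difference from WT -0.50) and of pluripotency markers are highest there.

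For each member the genes with the most similar pattern were found by the root mean square difference of centred log2 CPM over the 24 libraries, among 15639 genes. Axin2 was nearest to Lpp and Dusp10 (0.314 and 0.326, where the spread of Axin2 itself was 1.29). Sp5 was nearest to Amot and Igf2 (0.629 and 0.661, own spread 3.06), and Nkd1 to Zbtb4 and Fndc5 (0.381 and 0.393, own spread 1.43). Cdx1 was nearest to Nid1 and Arhgap9 (0.415 for both, own spread 1.34). Of the factors, Lef1 was nearest to Cthrc1 and Stbd1 (0.551 and 0.650, own spread 2.32), Tcf7 to Slc26a11 and Vezf1 (0.205 and 0.214, own spread 0.768) and Tcf7l2 to Tcf12 and Lrrc58 (0.163 and 0.179, own spread 0.552). Tcf7l1 varied least (own spread 0.391), and its nearest genes, Gpld1 and Ccdc71l, were 0.240 and 0.244 away. Members were left out of the search.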

How the data were processed

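Per the labels, polyadenylated RNA of ESC clones was sequenced paired-end in 24 libraries, with reads mapped by STAR 2.5.1 to mm9. The authors deposited counts, whole numbers of reads per RefSeq transcript line (31928 lines, no normalization, no pooling). Whether strand was used is not given in the sources used here. For the 4911 symbols with several lines the first was used. ERCC spike-in RNA has 0 lines, so no scaling by it was made.

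The members and gene lists were chosen with earlier results of these data known. In R 4.3.3, edgeR 4.0.16 (TMM factors 0.918 to 1.097, filterByExpr with a minimum count of 10, quasi-likelihood fit, 1 coefficient per group) was run on the 12 D0 libraries, the 12 D6 libraries and all 24. DESeq2 1.42.0 was an alternative, and others were library totals, DESeq2 size factors, no count filter, the line with the largest count, no fold limit, blocks, 1 fit for all libraries and leaving out each library. Named genes are the members, up to 3 called genes with the largest log2 fold change per list (Tet2-/- against WT at D6, and D6 against D0 in WT) and the 2 nearest patterns of each member. Sfrp1, Sfrp2, Sfrp4, Pygo1, Nanog, Sox2, Tdgf1, Nes and Zic1 were named after their values were seen. Groups came from the labels, and replicates are separate clones. WT, Tet2-/-, DKO and TKO clones are the same on both days by the labels, and 2 of the Tet1-/- clones are. DKO clone 512 of D6 was read as 5.12. Deviations from group means of the same clone on both days correlated at 0.0549 to 0.155, and title numbers of the replicates differ between days, so clones were paired by name. Depth covers counting error only, and the spread between clones sets the precision.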

Additional observations from a re-analysis of the deposited data

Results flagged for a closer look

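The change on LIF withdrawal differed between Tet2-/- and WT for 3 members, by the interaction test over all genes in edgeR. On the log2 scale the difference was -1.784 for Axin2, -2.307 for Nkd1 and -3.199 for Sp5, all smaller rises in Tet2-/-. For Nkd1, part of this lay at D0, where Tet2-/- differed from WT by 0.82 (not called). At D6 Nkd1 in Tet2-/- was also not called against DKO or TKO (log2 -0.24 and -0.29). Groups of 2 or 3 clones are too small for a test of single samples that lie apart.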

How the results depend on the processing

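No member's direction was turned for a called difference by any alternative. The number of members called was 1 in Tet2-/- against WT at D0, 2 by DESeq2 and 0 to 2 when single libraries were left out. In TKO against WT at D0 it was 0, and 0 to 1 with libraries left out. In Tet2-/- against WT at D6 it was 2, 4 with no fold limit, 3 under library totals, by DESeq2, with no filter, with the number block and with all 24 libraries, and 0 to 3 with libraries left out. In TKO against WT at D6 it was 0, 1 in the fit of all 24 libraries, and 0 to 1 with libraries left out. In Tet2-/- against Tet1-/- and against DKO it was 2, 3 with no fold limit and with all 24 libraries, and 0 to 2 with libraries left out in each. Against TKO it was 1, 2 by DESeq2, with no filter on low counts, with no fold limit and with all 24 libraries, 0 with the replicate number as a block, and 0 to 2 with libraries left out. From D0 to D6 in Tet2-/- it was 4, 7 with no fold limit, and 3 to 5 with libraries left out. In the interaction it was 3 for Tet2-/- and 0 to 3 with libraries left out, and for TKO 0, 1 by DESeq2, with no filter and with the clone as a block, and 0 to 1 with libraries left out. Where a left-out library lost or made a call, fewer samples entered the fit, and otherwise the cause was not tested. With the fits that leave a group 1 library, that library was assumed to vary like the other groups. Same-numbered libraries of different genotypes shared only a number, with correlations of deviations from -0.264 to 0.242. The clone block changed no member's call beyond those given in the text. Cdx1 was called higher in Tet2-/- at D6 than in DKO (1.22, adjusted p = 0.0334) and Tet1-/- (1.08, adjusted p = 0.0408) in the edgeR fit of all 24 libraries. Under library totals the median of all genes from D0 to D6 was 0.139 to 0.207 over the genotypes, in place of -0.012 to 0.015 under TMM, and with them Tcf7l1 (1.07) and Tcf7l2 (1.05) in Tet2-/- and Tcf7l2 (1.09) in DKO passed the fold limit. Counts over all genes also moved by more than 1.5 times. With no fold limit they went from 461 to 1417 (Tet2-/- against WT, D0), 455 to 1245 (TKO against WT, D0), 2201 to 4400 (Tet2-/- against WT, D6), 981 to 1544, 1466 to 2353 and 1334 to 2303 (Tet2-/- against Tet1-/-, DKO and TKO), 1357 to 2499 and 560 to 933 (interaction of Tet2-/- and TKO) and from 1 to 2 (Tet1-/- against WT, D0). From D0 to D6 they went from 5317 to 10366 in WT, 4861 to 9911 in Tet1-/-, 2987 to 6250 in Tet2-/-, 4564 to 8701 in DKO and 3976 to 7896 in TKO. With single libraries left out they ran from 0 to 2635 in Tet2-/- against WT at D6, 2 to 1713, 28 to 1682 and 2 to 2083 against Tet1-/-, DKO and TKO, 5 to 785 in Tet2-/- and 226 to 1147 in TKO against WT at D0, 0 to 721 in TKO and 0 to 22 in DKO against WT at D6, 0 to 110 in Tet1-/- and 0 to 235 in DKO against WT at D0, and 408 to 2096, 300 to 1146, 0 to 14 and 0 to 7 in the interactions of Tet2-/-, TKO, DKO and Tet1-/-. DESeq2 called 44, 185 and 470 genes in Tet1-/-, DKO and TKO against WT at D6 where edgeR called 0, and the fit of all 24 libraries called 98 in DKO and 515 in TKO, with 93 in TKO without the count filter. At D0, DESeq2, no filter and all 24 libraries gave 50, 29 and 13 genes in Tet1-/- in place of 1, and DESeq2, no filter and the number block gave 111, 79 and 17 in DKO in place of 5. Tet2-/- against Tet1-/- went from 981 to 1536 genes in the fit of all 24 libraries, and the interaction of Tet1-/- and DKO from 0 to 12 and 20 by DESeq2, with 3 in DKO under the clone block.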
